A study of Mus musculus with 6 samples.

Results

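The genes Bmp4, Bambi, Bmpr1a, Smad1, Smad5, Smad6, Id1, Id2, Id3 and Dusp9, which carry bone morphogenetic protein (BMP) signaling and its Id targets in mouse embryonic stem cells, were followed through 6 RNA-seq libraries. They were found by their symbols in the deposited table, 1 row each, and make up 10 of its 24421 genes. All 10 were among the 12435 genes that passed the filter on low values. The cells were of E14, a mouse embryonic stem cell line, and polyadenylated RNA was sequenced from 3 libraries of wild-type cells and 3 libraries of Pml-/- cells. Both groups grew in a serum medium that held leukemia inhibitory factor, CHIR99021, which inhibits the kinase GSK3, and PD0325901, which inhibits the kinase MEK. The comparison asks how these transcripts differ once Pml, the gene of the PML nuclear body scaffold, is disrupted. The labels do not say whether replicates were separate cultures, and the knockout columns share the name KO34. The p-values therefore measure only the spread between libraries, which may be technical. An effect of the Pml disruption and a trait of that knockout line cannot be told apart.

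BMP ligands bind pairs of type I and type II receptor kinases at the cell surface, and the activated receptor phosphorylates Smad1, Smad5 and Smad9. These enter the nucleus with Smad4 and raise transcription of target genes, of which the Id genes are the best known. Id proteins carry a helix-loop-helix domain without the basic region that contacts DNA, so they bind E proteins and keep them off their sites. In mouse embryonic stem cells, BMP from serum or added protein acts beside leukemia inhibitory factor to hold cells undifferentiated, and Id genes and the ERK phosphatase gene Dusp9 are known targets there.

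Library totals lay between 5845653 and 11046725 reads, with each wild-type library larger than each knockout library, and 3 reads equalled between 0.272 and 0.513 CPM, the usual read count of a gene divided by library size. Pml, the check of the labels, read 186, 194 and 193 CPM in wild-type replicates 1, 2 and 3 against 77.3, 75.4 and 76.3 CPM in those of the knockout, a log2 fold change of -1.31, so its transcript was reduced and not absent. The embryonic stem cell markers were present in both groups, with Dppa5a at 2152 ± 70.0 and 2157 ± 153 CPM and Pou5f1 at 1447 ± 16.7 and 1457 ± 23.2 CPM (mean ± SD, n = 3, wild type and knockout). Of the 8 embryonic stem cell markers tested, 1 was higher, Klf4 (184 ± 7.10 and 215 ± 4.97 CPM, limma adjusted p = 8.3e-05), and 7 did not pass. Of the marker lists of other cell types, the 4 neural precursor genes summed to 134 to 146.5 CPM in wild type and to 87.9 to 97.0 CPM in the knockout, and all 3 tested members were lower, among them Tubb3 (105 ± 5.46 and 74.2 ± 2.60 CPM) and Nes (29.0 ± 2.97 and 15.5 ± 1.246 CPM), while Pax6 had 3 and 4 reads. The 8 fibroblast genes summed to 1237 to 1309 and 1341 to 1372 CPM, with 2 tested members higher (Fn1 at 856 ± 49.9 and 1051 ± 20.0 CPM, the other Pdgfrb) and 2 lower (Vim at 386 ± 14.8 and 281 ± 17.3 CPM, the other Thy1), and Postn was at 0 reads. The 8 trophoblast genes summed to 97.0 to 101 and 99.1 to 110 CPM (1 higher, Eomes, and 1 lower, Cdx2; Tfap2c at 45.8 ± 2.53 and 48.3 ± 1.21 CPM), with Elf5 at 0 reads. The limma call of Eomes was lost without wild-type replicate 1 (adjusted p = 0.0627), 2 (0.146) or 3 (0.0686), without knockout replicate 1 (0.0523) or 3 (0.225), with no filter (0.0804) and with DESeq2 (0.134). The summed ranges overlapped for the 7 mesoderm genes (15.0 to 17.7 and 13.6 to 16.4 CPM; T at 11.2 ± 1.35 and 10.7 ± 1.47 CPM, Kdr at 2.18 ± 0.155 and 2.34 ± 0.101 CPM). They also overlapped for the 8 primitive endoderm genes (70.9 to 75.3 and 67.5 to 79.2 CPM; Lama1 at 68.7 ± 3.14 and 67.7 ± 6.20 CPM, Dab2 at 1.42 ± 0.215 and 2.43 ± 0.280 CPM), and no tested member of these last lists was called. The part of other cells in the results on BMP genes was not tested.

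In the knockout, transcripts of the ligand gene Bmp4, of Id3 and of the phosphatase gene Dusp9 were modestly lower, and no member was called higher. From pooled reads, Bmp4 and Id3 stood at 76.8% and 78.7% of the wild-type level and Dusp9 at 88.0%. Without wild-type replicate 2, wild-type replicate 3 or knockout replicate 2 the count of called members was 1, Dusp9. The other 7 members did not pass the test, which was limma on log2(CPM + 1) with p-values adjusted over all 12435 tested genes and a threshold of 0.05. Over all tested genes 14% were called, made up of 7.49% lower in the knockout and 6.54% higher. The list itself was not tested against that share. In bulk RNA, fewer cells that make a transcript and less of it per cell cannot be told apart. The groups did not overlap for 3 members, Bmp4, Smad1 and Dusp9, which is close to the share over all tested genes, 30.2%. An unadjusted p under 0.05 was reached by 5 members, Bmp4, Id1, Id3, Smad1 and Dusp9, against 27.4% of all tested genes. The log2 fold change was below 0 for 8 of 10 members, with a median of -0.15, against 48.6% of all tested genes and a median of 0.00463.

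**Figure D1:**
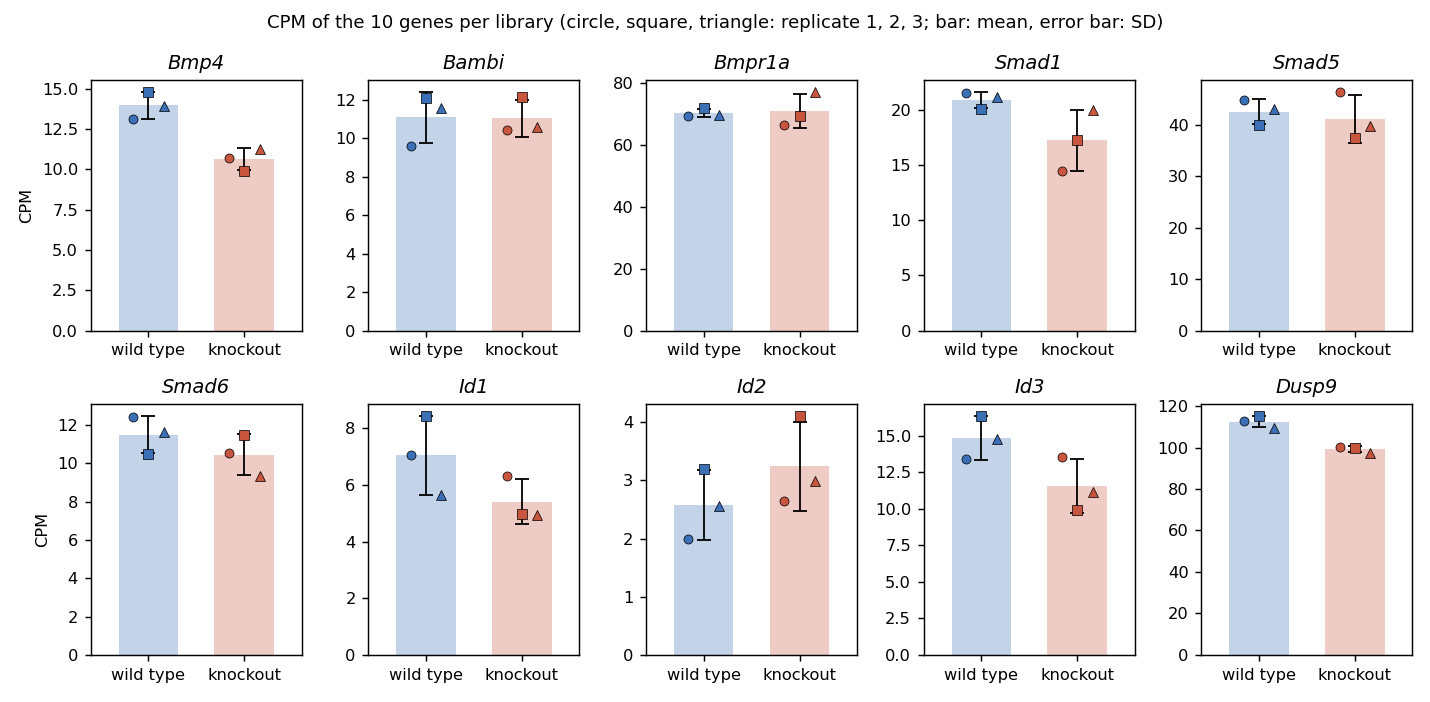
CPM of each of the 10 genes (vertical axis, from 0) in the 3 wild-type and 3 knockout libraries, with the mean as a bar and the SD as an error bar. The knockout libraries lie below all wild-type libraries for Bmp4 (9.92 to 11.3 against 13.1 to 14.8 CPM), Smad1 and Dusp9, and the groups overlap for the other genes.

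Bmp4 encodes a secreted BMP ligand and lies on chromosome 14 (mm10, 46379524 to 46390599, minus strand). It stood at 13.1, 14.8 and 13.95 CPM in the wild-type libraries (145, 153 and 131 reads) and at 10.7, 9.92 and 11.3 CPM in the knockout libraries (81, 58 and 98 reads). Every knockout library lay below every wild-type library. The log2 fold change, on the log2(CPM + 1) scale that understates changes of low genes, was -0.36 (95% interval -0.59 to -0.14, SE 0.108, limma adjusted p = 0.0210). From 237 knockout and 429 wild-type reads the knockout level was 76.8% of wild type (exact 95% interval 65.3% to 90.2%, which covers counting error only). The SD between wild-type libraries, 0.846 CPM, was smaller than the 1.17 CPM that counting alone would give, so read number limits the precision here. Leaving out wild-type replicate 2 ended the call (adjusted p = 0.114), as did leaving out wild-type replicate 3 (0.0679) or knockout replicate 2 (0.0549), keeping genes of low value in (0.0620) or using DESeq2 on recovered reads (0.159); over all 13 alternatives the adjusted p ran from 0.0108 to 0.159, and Bmp4 was lower in each. In the authors' deposited table the log2 fold change of Bmp4 was -0.39 with an FDR of 0.0153. At an FDR under 0.05 that table holds the same 3 members, Bmp4, Id3 and Dusp9, against 6.36% of all its genes. That share is over 24421 genes, 6417 of them at 0 reads in all libraries, so it is no like base for members that all passed the filter. The deposited locus starts 3996 bases before the GENCODE M21 gene, on the side of its 3′ end. The exons of Bmp4 share 89 bases with Gm15217 on the opposite strand, which has a row of its own at 0.0980 and 0.0570 CPM.

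Bambi, on chromosome 18 (3507957 to 3516404), encodes a receptor-like protein without a kinase domain that dampens BMP and related signals. Its libraries read 9.60, 12.1 and 11.6 CPM in wild type and 10.4, 12.1 and 10.6 CPM in the knockout. The groups overlapped, and the log2 fold change was -0.0035 with a 95% interval from -0.24 to 0.24 (limma adjusted p = 0.989).

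Bmpr1a encodes the type I receptor kinase that BMP4 binds, and lies on chromosome 14 (34410882 to 34502546, minus strand). Its 69.5, 72.1 and 69.7 CPM in wild type stood beside 66.6, 69.3 and 77.3 CPM in the knockout, so that the wild-type libraries fell within the knockout range. The log2 fold change was 0.01 (95% interval -0.10 to 0.12, limma adjusted p = 0.930), from 2166 and 1582 reads. That interval is the narrowest after Dusp9, and it leaves room for a difference of about 0.1 on the log2 scale in either direction. An antisense gene, Gm17110, shares 290 bases with its exons and was not analysed here. Strandedness of the libraries is not given in the sources used here, so reads of the 2 strands cannot be told apart.

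The receptor-activated Smads Smad1 and Smad5 carry the signal to the nucleus, and Smad6 is an inhibitory Smad that is itself induced by BMP. Smad1, on chromosome 8 (79338398 to 79399468, minus strand), read 21.5, 20.1 and 21.2 CPM in wild type and 14.5, 17.3 and 20.0 CPM in the knockout. The groups did not overlap, but knockout replicate 3 came close to the lowest wild-type library, and the knockout SD, 2.76 CPM, was above the 1.55 CPM expected from counting. The log2 fold change was -0.28 (95% interval -0.48 to -0.07, SE 0.0999, limma adjusted p = 0.0636), which missed the threshold, and the authors' deposited table gave an FDR of 0.0695 for Smad1. Without knockout replicate 3 Smad1 was called at a log2 fold change of -0.38 (adjusted p = 0.0190), and without knockout replicate 1 it stood at -0.16 (0.309); over its 13 alternatives the adjusted p ran from 0.0190 to 0.309. On chromosome 8, 66.7% of the other 648 tested genes also had a log2 fold change below 0, against 48.6% over all tested genes, with a median of -0.06. Of these 648, 90 (13.9%) were called lower and 17 higher, against 7.49% lower over all tested genes. The part of this in the value of Smad1 was not tested.

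Smad5, on chromosome 13 (56703010 to 56742378), read 44.7, 39.9 and 43.0 CPM in wild type and 46.4, 37.5 and 39.7 CPM in the knockout, with overlap. Its log2 fold change was -0.05 (95% interval -0.20 to 0.10, limma adjusted p = 0.708). Smad6, on chromosome 9 (63953076 to 64022825, minus strand), read 12.4, 10.5 and 11.6 CPM against 10.5, 11.5 and 9.32 CPM, also with overlap (log2 fold change -0.13, 95% interval -0.37 to 0.11, limma adjusted p = 0.521). The value for Smad6 was -0.08 when wild-type replicate 1 was left out, -0.06 for knockout replicate 3 and -0.19 for knockout replicate 2. As shares of the summed CPM per kilobase of Smad1, Smad5 and Smad9, Smad5 made up 61.4% ± 0.841 in wild type and 65.5% ± 5.57 in the knockout. Smad1 made up 35.9% ± 0.348 and 32.7% ± 5.36, and Smad9 2.75% ± 0.493 and 1.81% ± 0.843 (SD, n = 3). The knockout libraries ranged from 26.6% to 36.9% for Smad1, a range that holds all 3 wild-type values.

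**Figure D2:**
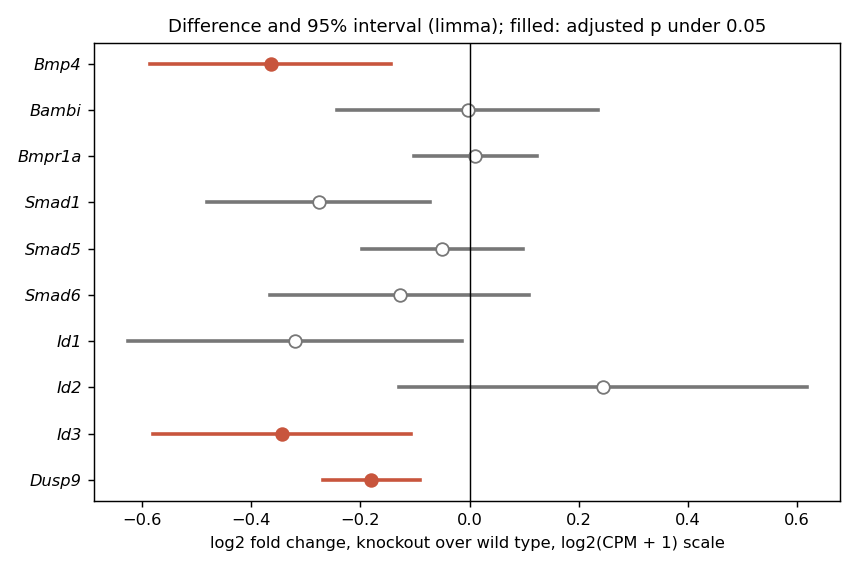
Log2 fold change of each gene, knockout over wild type, on the log2(CPM + 1) scale (horizontal axis), with limma's 95% interval as a line and a filled point where the adjusted p was under 0.05. The filled points are Bmp4 at -0.36, Id3 at -0.34 and Dusp9 at -0.18, and the interval of Id2, from -0.13 to 0.62, is the widest.

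The Id genes are short genes on different chromosomes: Id1 on chromosome 2 (152736251 to 152737410), Id2 on chromosome 12 (25093799 to 25096092, minus strand) and Id3 on chromosome 4 (136143822 to 136145392). The 250 bases upstream of the RefSeq transcript start are shown for Id3, which was lower, for Id2, whose estimate pointed up, and for Bmp4, so that the promoters of genes on either side of 0 can be read next to each other. They are written 5′ to 3′ on the gene's strand (RefSeq, GRCm38.p6, the build named mm10), at chr4:136143572-136143821, chr12:25096093-25096342 and chr14:46390670-46390919. Capitals mark GGCGCC, a GC-rich element that Smad1 and Smad5 are known to bind.
Id3: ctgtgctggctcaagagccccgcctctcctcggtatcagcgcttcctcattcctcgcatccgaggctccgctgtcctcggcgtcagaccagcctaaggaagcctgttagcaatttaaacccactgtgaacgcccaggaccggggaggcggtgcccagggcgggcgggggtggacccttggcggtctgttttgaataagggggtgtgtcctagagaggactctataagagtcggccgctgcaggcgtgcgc
Id2: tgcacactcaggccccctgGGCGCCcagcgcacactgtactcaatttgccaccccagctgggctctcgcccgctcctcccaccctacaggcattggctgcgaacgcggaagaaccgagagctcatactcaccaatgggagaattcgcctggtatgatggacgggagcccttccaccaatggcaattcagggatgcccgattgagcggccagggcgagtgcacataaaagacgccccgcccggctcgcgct
Bmp4: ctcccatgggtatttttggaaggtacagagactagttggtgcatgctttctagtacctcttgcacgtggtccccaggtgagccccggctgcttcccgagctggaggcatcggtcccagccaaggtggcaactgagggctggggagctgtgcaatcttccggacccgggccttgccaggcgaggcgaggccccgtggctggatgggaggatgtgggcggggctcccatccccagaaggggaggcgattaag
The palindrome GGCGCC occurred once in the Id2 window, 231 bases before the start, and not in the windows of Id3 and Bmp4. It also occurred in the window of Bmpr1a, 198 bases before the start, and in 1 of 3 windows of Smad5, 19 bases before it, and not in those of Smad1 and Smad6. The log2 fold changes of Bmpr1a and Smad5 were near 0, so no direction is read from the motif, which 9.59% of 32851 RefSeq windows of this length held. The palindrome GTCTAGAC, a Smad4 element, was in none of these windows and in 0.167% of all. TATAAA, searched on both strands, was also in none of them and in 12.4% of all. The GC content was 62.8% for Id3, 62.8% for Id2 and 63.2% for Bmp4. These matches describe the letters in the windows only. Windows were matched by symbol for 7 of the 10 members, and Id1, Dusp9 and Bambi had none in the table used.

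Id3 read 13.4, 16.4 and 14.8 CPM in wild type (148, 169 and 139 reads) and 13.6, 9.92 and 11.2 CPM in the knockout (103, 58 and 97 reads). The groups overlapped, since knockout replicate 1 lay above wild-type replicate 1. The log2 fold change was -0.34 (95% interval -0.58 to -0.11, SE 0.116, limma adjusted p = 0.0445), just under the threshold, and 0.0447 was the FDR of Id3 in the authors' deposited table. The knockout level was 78.7% of wild type (exact 95% interval 67.3% to 91.8%, counting error only). The call was lost without wild-type replicate 2 (adjusted p = 0.218), wild-type replicate 3 (0.113), knockout replicate 2 (0.160) or knockout replicate 3 (0.121), and with no filter on low values (0.124) or DESeq2 (0.224); over the 13 alternatives the adjusted p ran from 0.00938 to 0.224, with Id3 lower in each.

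Id1 read 7.06, 8.43 and 5.64 CPM in wild type and 6.33, 4.96 and 4.95 CPM in the knockout. Its groups overlapped, the knockout level from pooled reads was 76.5% of wild type (exact 95% interval 60.7% to 96.1%, counting error only), and the log2 fold change of -0.32 (95% interval -0.63 to -0.01) had a limma adjusted p of 0.161. That estimate, from 218 and 120 reads, was -0.20 without wild-type replicate 2 and -0.45 without wild-type replicate 3. Id2 read 1.99, 3.20 and 2.56 CPM in wild type and 2.64, 4.11 and 2.99 CPM in the knockout, with 79 and 70 reads in all. Its groups overlapped, and the log2 fold change was 0.24 (95% interval -0.13 to 0.62, limma adjusted p = 0.419), an interval that covers both a fall and a rise, so that no difference was detectable at this depth. Leaving out wild-type replicate 1 gave 0.12, and leaving out knockout replicate 2 gave 0.10.

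Per kilobase of exon, the summed level of Id1 to Id4 was 17.4, 21.01 and 17.6 CPM in the wild-type libraries and 16.1, 14.8 and 14.14 CPM in the knockout libraries, without overlap. Id3 held the largest share of that sum in every library, 44.5% ± 2.14 in wild type and 42.9% ± 4.96 in the knockout (SD, n = 3, exact permutation p = 0.9). Id1 followed with 32.4% ± 4.14 and 31.0% ± 2.62 (exact permutation p = 0.8) and Id4 with 17.4% ± 1.85 and 17.2% ± 5.05 (exact permutation p = 1). The share of Id2 was 4.71%, 6.24% and 5.96% in wild type and 6.73%, 11.4% and 8.68% in the knockout. These did not overlap, with an exact two-sided permutation p of 0.1, the smallest that 3 against 3 libraries allow, and 0.4 when adjusted over the 4 shares. Id4 itself, at 12.4 ± 0.883 and 9.83 ± 2.61 CPM, did not pass limma (log2 fold change -0.33, adjusted p = 0.0988), and its deposited locus (chromosome 13, 48044231 to 48265170) begins well before the annotated gene at 48261228, a mismatch whose effect on its reads was not tested.

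**Figure D3:**
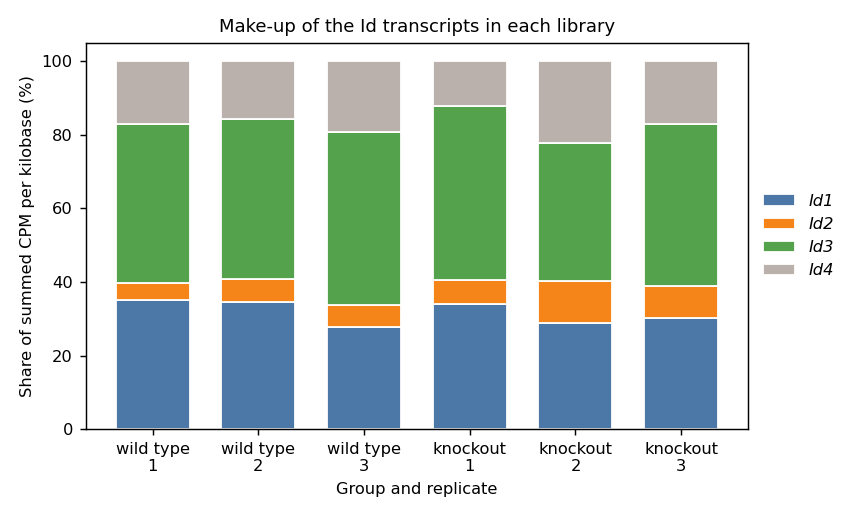
Share of Id1, Id2, Id3 and Id4 in their summed CPM per kilobase (vertical axis, percent) in each library. Id3 and Id1 take the greater part in all 6 libraries, and the Id2 band runs from 4.71% to 6.24% in wild type and from 6.73% to 11.4% in the knockout.

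Dusp9 encodes a phosphatase that removes phosphate from ERK, and lies on chromosome X (73639417 to 73643514). It read 113, 115 and 110 CPM in wild type (1247, 1187 and 1029 reads) and 100.2, 99.9 and 97.4 CPM in the knockout (760, 584 and 847 reads). All knockout libraries lay below all wild-type libraries. The log2 fold change was -0.18 (95% interval -0.27 to -0.09, SE 0.0433, limma adjusted p = 0.00473), and the knockout level was 88.0% of wild type (exact 95% interval 83.4% to 92.8%, counting error only). Dusp9 was the most deeply read of the 10 genes and was called under all 13 alternatives, with adjusted p from 0.000554 to 0.0390. In the authors' deposited table its log2 fold change was -0.19 and its FDR 0.00092.

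Of 24 other tested genes within 500 kb of Dusp9, 10 were lower and 2 higher in the knockout. The 8 Xlr genes (Xlr3a at 32.8 and 1.33 CPM, for example) and F8a account for 9 of the 10, and their deposited loci end between 349 and 374 kb before Dusp9. All of these except Xlr5c share the same deposited end, 374 kb away, so a distance of each gene's own is not given. Whether each of them lies within 500 kb was not tested. Some of the Xlr genes are near-identical copies, so the split of reads among such copies is uncertain. Zfp275 (30.1 and 29.8 CPM) and Haus7 (30.6 and 32.2 CPM), which lie between that cluster and Dusp9, were not called. On the other side Slc6a8, 29.6 kb away, stood at 196 and 194 CPM, while Bcap31, 42.7 kb away, was lower at 118 and 106 CPM (log2 fold change -0.15, limma adjusted p = 0.0206). Pdzd4 and Irak1, at 150 and 370 kb, were higher (log2 fold change 0.35 and 0.30). For comparison, 5 genes were tested within 500 kb of Bmp4, with 0 called by limma, and 16 near Id3, of which Asap3 and Tcea3 were lower. Near Id1 3 of 16 were lower and 2 higher, and near Bmpr1a 1 of 10 was lower and 3 were higher. The count was 1 of 5 lower near Id2, 1 of 3 higher near Smad5 and 2 of 11 higher near Smad6. Of 5 genes tested near Smad1 and 2 near Bambi, 0 were called by limma. Among the 424 other tested genes of chromosome X, which include these 24, 46 (10.8%) were lower and 49 higher. Their median log2 fold change was 0.016. Over all tested genes 7.49% were lower and 6.54% higher. These neighbours were named after their values were seen.

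Of 6 tested relatives of Dusp9 that also dephosphorylate MAP kinases, 1 was lower and 5 did not pass the test, with a median log2 fold change of -0.12. That is 16.7% called, near the 14% over all tested genes. Dusp1 read 34.4, 35.4 and 31.8 CPM in wild type and 24.9, 26.7 and 25.2 CPM in the knockout, without overlap (log2 fold change -0.39, SE 0.0744, limma adjusted p = 0.000434). Dusp6, a feedback target of ERK that MEK inhibition holds low, stood at 13.4 ± 1.30 and 11.4 ± 1.11 CPM (log2 fold change -0.22, limma adjusted p = 0.204).

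Compared per kilobase of the union of GENCODE M21 exons, Dusp9 stood far above the other members in both groups, at 41.3 ± 0.994 CPM per kilobase in wild type and 36.4 ± 0.558 in the knockout. Bmpr1a followed (11.1 ± 0.225 and 11.2 ± 0.878) and then Id3 (8.30 ± 0.830 and 6.45 ± 1.04). In wild type Bmp4 (6.21 ± 0.376), Id1 (6.07 ± 1.20) and Smad5 (5.73 ± 0.329) came next, and neighbours among these 3 overlapped between libraries. Smad6 (3.59 ± 0.305) and Smad1 (3.35 ± 0.116) overlapped as well, and Bambi (2.19 ± 0.262) and Id2 (1.06 ± 0.247) came last. In the knockout Smad5 (5.55 ± 0.628) ranked above Bmp4 (4.73 ± 0.301) and Id1 (4.67 ± 0.684). Its libraries overlapped with those of Id3 and Id1 but not with those of Bmp4. The lengths are those of annotated exons, and with the longest transcript in place of the union Smad1 ranked above Smad6 in both groups. With that length Bmpr1a (11.8) and Id3 (11.6) overlapped in wild type. The deposited loci of Id2 and Id3, for example, are shorter than the annotated genes, and the effect on their levels per kilobase was not tested.

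Beyond these 10 genes, 76 further genes of the pathway were grouped by role, of which 47 were tested, 6 were lower, 2 higher and 39 not past the test. That is 17.0% called, near the 14% over all tested genes, with a median log2 fold change of 0.00995. The counts of each role list below stand beside that same 14%, and no list was tested against it. The count of 8 was 5 without wild-type replicate 1, 4 without knockout replicate 3 and 3 with DESeq2. The other ligands were mostly near 0 reads, with 4 of 14 tested and 0 called by limma (0 at an unadjusted p under 0.05, and 0 by edgeR or DESeq2). Gdf3, a ligand of the same superfamily, stood at 123 ± 0.785 and 124 ± 6.38 CPM and Bmp7 at 13.96 ± 0.288 and 13.5 ± 1.09 CPM. Of the ligand genes only Bmp4 was called, and it was called under 8 of 13 alternatives. Bmp8a, from 98 and 54 reads, stood at a like 76.6% of wild type, but its groups overlapped and it did not pass (limma adjusted p = 0.347). Of the 4 other ligand genes tested, 2 had a log2 fold change below 0.

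Among receptors and co-receptors 2 of 10 tested genes were lower and 8 did not pass, with a median of -0.13. Rgma, a BMP co-receptor, read 10.1, 12.1 and 9.91 CPM in wild type and 7.65, 7.36 and 6.79 CPM in the knockout, without overlap (log2 fold change -0.50, SE 0.124, limma adjusted p = 0.00589). Its call was lost without wild-type replicate 2 (adjusted p = 0.0663) and with DESeq2 (0.0550). The deposited locus of Rgma begins at 73310380 on chromosome 7, well before the annotated gene at 73375509. The effect of that mismatch on its reads was not tested. Other called genes share it. The loci of Ppm1a (72734328, annotated 72757455) and Tbx3 (119660803, annotated 119670669) also begin early. That of Eng ends at 32694175, past the annotated end at 32682669. The effect on these 3 genes was not tested either. Eng, the co-receptor endoglin, measured 95.4 ± 5.35 CPM in wild type against 86.1 ± 0.535 CPM in the knockout (log2 fold change -0.14, limma adjusted p = 0.0420), a call that was lost without wild-type replicate 1 (0.0959), wild-type replicate 3 (0.243), knockout replicate 1 (0.0758) or knockout replicate 3 (0.109), with no filter (0.0680) and with DESeq2 (0.187). The type I receptor gene Acvr1 stood at 16.5 and 13.3 CPM (adjusted p = 0.0573) and the type II receptor gene Bmpr2 at 19.6 and 23.0 CPM (0.123) by limma, and neither passed.

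Of the secreted antagonists 5 of 15 were tested and 0 were called by limma (1 at an unadjusted p under 0.05, and 0 by edgeR or DESeq2). The most abundant were Fstl1 (98.8 ± 1.06 and 99.96 ± 6.56 CPM) and Twsg1 (63.2 ± 4.26 and 64.6 ± 0.669 CPM). Noggin and the gremlins, the classical BMP traps, had at most 6 reads in a group.

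Of 17 tested Smads and regulators the test called 2 lower and 1 higher, and 14 missed it, with a median of -0.02. Both genes that were lower, Ppm1a (80.2 ± 1.06 and 71.3 ± 2.67 CPM) and Ctdsp1 (56.8 ± 2.58 and 47.3 ± 3.15 CPM), encode phosphatases known to act on Smads. Their log2 fold changes were -0.17 and -0.26 (limma adjusted p = 0.0196 and 0.0040). Ctdspl, a relative of Ctdsp1, went the other way and was higher. It read 3.08, 2.91 and 3.09 CPM in wild type and 4.35, 5.13 and 5.75 CPM in the knockout (log2 fold change 0.59, SE 0.157, limma adjusted p = 0.0106), from 93 and 113 reads. Ctdsp2, a further relative, stood at 267 ± 1.34 and 252 ± 9.43 CPM and did not pass (limma adjusted p = 0.117). The call of Ctdspl was lost without knockout replicate 3 (adjusted p = 0.0684) and with DESeq2 (0.0945). That of Ppm1a was lost without wild-type replicate 1 (0.0770), wild-type replicate 2 (0.0775) or knockout replicate 3 (0.0943) and with DESeq2 (0.121). Smad4, the shared partner, stood at 75.1 and 74.2 CPM, and the inhibitory Smad7 at 125 and 133 CPM, and neither passed limma (adjusted p = 0.875 and 0.152).

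Among the other targets 1 of 8 tested genes was higher, 1 was lower and 6 did not pass, with a median of 0.15. Tbx3, a T-box factor that Wnt and other signals also raise in these cells, rose by 0.15 on the log2 scale (SE 0.0325, limma adjusted p = 0.0016), with 281 ± 1.51 CPM in wild type against 312 ± 9.69 CPM in the knockout. Klf10, a zinc finger gene induced by the TGF-beta family, measured 93.4 ± 2.38 CPM in wild type against 83.6 ± 5.35 CPM in the knockout (log2 fold change -0.16, limma adjusted p = 0.0294), and its call was lost without wild-type replicate 1 (0.115), wild-type replicate 3 (0.101) or knockout replicate 3 (0.204), with no filter (0.0608) and with DESeq2 (0.130). Of the E proteins that Id proteins bind, 1 of 3 was lower. Tcf3, which encodes E12 and E47, read 171, 172 and 175 CPM in wild type and 140.2, 155.5 and 155.3 CPM in the knockout (log2 fold change -0.20, SE 0.0414, limma adjusted p = 0.00114). Tcf4 and Tcf12 stood at 49.6 and 49.6 CPM and at 41.2 and 39.8 CPM.

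**Figure D4:**
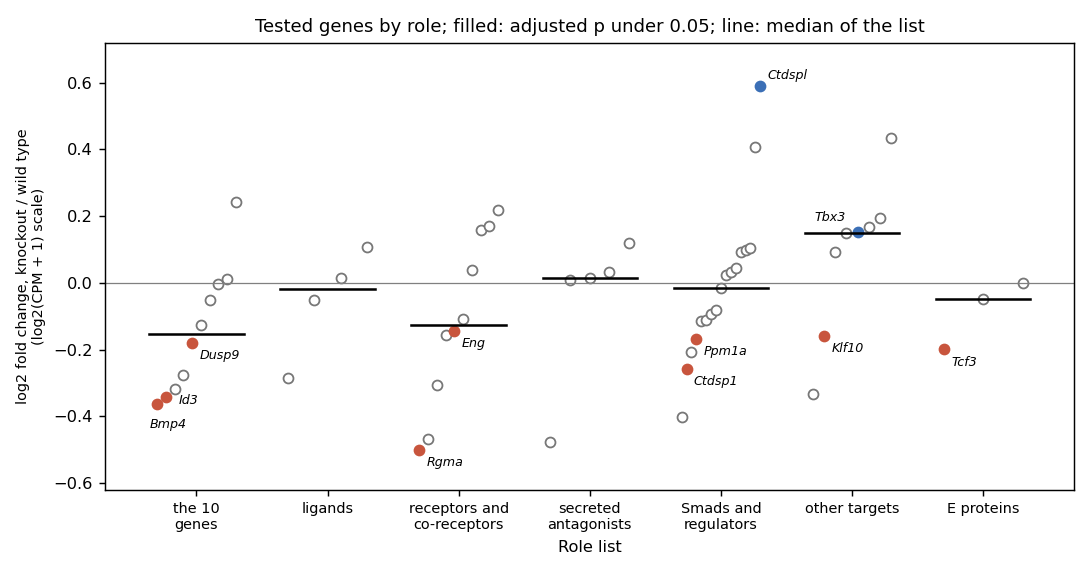
Log2 fold change (vertical axis, log2(CPM + 1) scale) of the tested genes in each role list, ordered by value within a list, with filled points at an adjusted p under 0.05 and a line at the list's median. The 10 genes have a median of -0.15 and receptors one of -0.13, and the filled points run from Rgma at -0.50 to Ctdspl at 0.59.

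**Figure D5:**
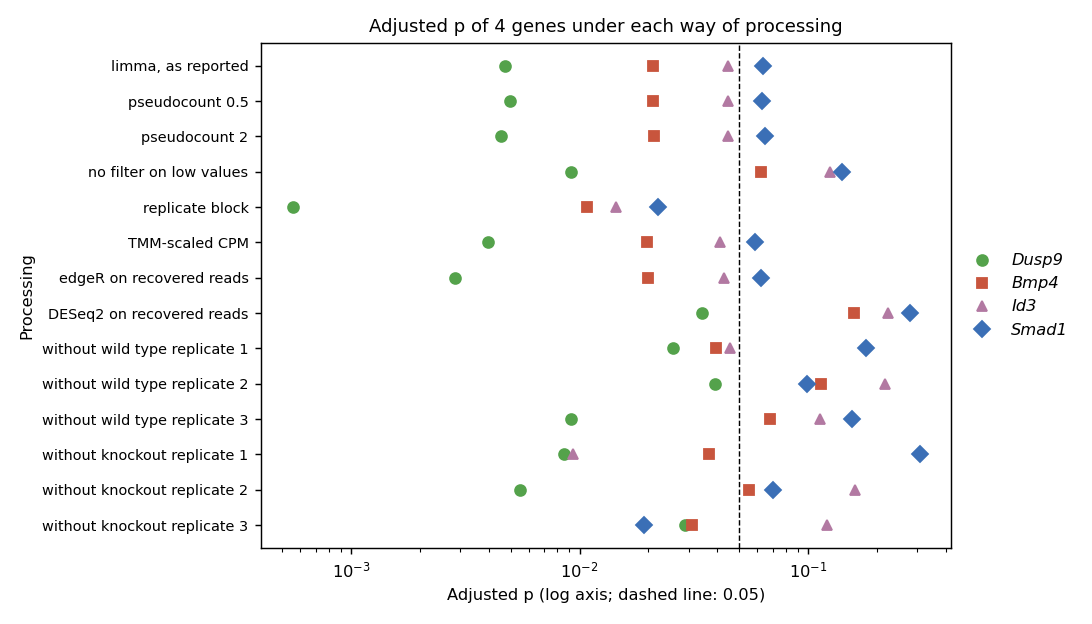
Adjusted p (horizontal log axis, dashed line at 0.05) of Dusp9, Bmp4, Id3 and Smad1 under each way of processing (vertical axis). Dusp9 stays left of the line in all, Bmp4 and Id3 cross it under 5 and 6 of the 13 alternatives, and Smad1 lies left of it under 2.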

How the data were processed

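The 6 libraries, 3 per group, come from 1 deposited table. The submitters' processing notes and design text name cutadapt, TopHat, the build mm10 and edgeR. Versions, annotation and read counter: not given in the sources used here. For each gene the authors deposited, per the file headers, the CPM of every library beside their own edgeR output (log2 fold change, mean log2 CPM, p-value, FDR). Columns were tied to samples by genotype and replicate number. Of 25833 rows, 1097 without values and 315 exact repeats were left out. The CPM are whole reads over library totals: 100% of the values came out whole within 0.01 of a read.

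The filter on low values was filterByExpr of edgeR, applied to recovered reads. The test was limma 3.58.1 (trend on mean level) on log2(CPM + 1), both groups together, with Benjamini-Hochberg adjustment over 12435 genes. The code was checked on simulated counts. Library pairs gave a chi-square per degree of freedom of 1.33 to 1.64 within and 3.19 to 4.53 between groups, so all libraries were counted. Alternatives were other pseudocounts, no filter, TMM-scaled CPM, edgeR 4.0.16 and DESeq2 1.42.0 on recovered reads, a replicate block and leaving out each library. Loci are those of the table with 1 added to the start (6642 starts lay 1 base before GENCODE M21, 661 at it). Intervals of read ratios are exact binomial, from pooled reads, and cover counting error only. The members and lists were chosen with earlier results of these data known. In each role list every called gene is named, or, in a list with no call and in marker lists, the 2 genes of highest mean CPM. Named beyond that rule were Bmp8a, Id4, Acvr1, Bmpr2, Smad4, Smad7, Smad9, Ctdsp2, Dusp6, Tcf4, Tcf12, further members of marker lists and chromosomal neighbours.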

Additional observations from a re-analysis of the deposited data

How the results depend on the processing

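With no filter on low values 1 member was called, and with DESeq2 on recovered reads also 1, against 3 in the main test; in both cases this was Dusp9. Leaving out 1 library gave between 1 and 3 called members, 4 to 10 other pathway genes (against 8) and 1160 to 1852 genes in all (against 1745, the lowest without wild-type replicate 2). DESeq2 called 3 other pathway genes and 802 genes in all. Pseudocounts of 0.5 and 2, TMM-scaled CPM and edgeR on recovered reads each called 3 members and 8 other pathway genes. The cause of these differences was not tested.

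The replicate numbers were not taken as pairs, since the sample titles number the replicates without naming pairs. The correlations of same-numbered deviations were 0.0755, 0.0603 and 0.0136, and every library correlated best with its own number. That is a hint from the data and not the design, and such small correlations cannot decide whether the libraries were paired. With the replicate number as a block, 4 members were called (Smad1 with an adjusted p of 0.0220), 12 other pathway genes and 2337 genes in all.

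Of 468 log2 fold changes of 36 named genes under the alternatives, 412 kept their direction and side of the threshold, 37 missed the threshold, 2 passed it and 17 changed sign, all 17 for genes that were not called. Leaving out 1 library gave ranges of -0.14 to 0.014 for Smad5, -0.051 to 0.055 for Bmpr1a, -0.096 to 0.057 for Bambi, -0.027 to 0.043 for Gdf3, -0.038 to 0.049 for Fstl1, -0.023 to 0.066 for Twsg1, -0.15 to 0.033 for T, -0.084 to 0.046 for Lama1 and -0.056 to 0.038 for Dppa5a, which was also -0.0022 with TMM-scaled CPM and -0.0019 with edgeR. The difference in the share of Id3 among Id transcripts, -1.65 percentage points, ran from -3.79 to 1.07 when 1 library was left out.

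With the longest transcript as length, levels moved by more than 1 SD for Bmpr1a (11.8 CPM per kilobase in wild type), Id3 (11.6 in wild type and 9.04 in the knockout), Bmp4 (6.77 and 5.15), Smad5 (6.46 and 6.26), Smad1 (5.55 and 4.57) and Id2 (1.31 and 1.65). Id1 and Id2 had the fewest reads of the members, 29 to 87 and 20 to 33 per library; for Id1 the wild-type SD, 1.39 CPM, was also above the 0.828 CPM expected from counting.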
